A study of Mus musculus with 96 samples.

Results

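Creatine is made, moved and phosphorylated by a small set of proteins, and the transcripts of 8 of them were followed along the mouse nephron. The 8 genes were taken by symbol from a table of 54532 genes: the enzymes Gatm and Gamt, the carriers Slc6a8 and Slc16a12, and the creatine kinases Ckb, Ckm, Ckmt1 and Ckmt2. They were chosen by their role in the pathway, by a rule that uses no measured value, with earlier results of these data known. They were followed in 93 samples of RNA from 53 male C57BL/6 mice aged 6 to 8 weeks, untreated as far as the labels say, with no transgene or deletion named. Glomeruli (3 mice) and 14 kinds of tubule segment were dissected by hand. The proximal tubule was sampled at its convoluted start (PTS1, 3 mice), in the medullary rays of the cortex (PTS2, 5 mice) and in the outer stripe (PTS3, 3 mice). The thin limbs of Henle's loop were the descending limb of short loops (DTL1, 3 mice), the descending limb of long loops in the outer medulla (DTL2, 3 mice) and in the inner medulla (DTL3, 3 mice), and the ascending limb (ATL, 4 mice). The thick ascending limb was taken from medulla (MTAL, 3 mice) and cortex (CTAL, 5 mice). It was followed by the distal convoluted tubule (DCT, 3 mice), the connecting tubule (CNT, 3 mice) and the collecting duct of cortex (CCD, 5 mice), outer medulla (OMCD, 4 mice) and inner medulla (IMCD, 3 mice). Levels are TPM, the share of a sample's transcripts that a gene makes up after correction for transcript length, so that genes of 1 sample can be compared. Up to 3 pieces of 1 mouse were averaged, and all errors are SDs over mice. A segment piece holds more than 1 kind of cell, and fewer cells of a type and less RNA per cell cannot be told apart in such samples.

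Creatine stores high-energy phosphate. The kidney enzyme GATM joins arginine and glycine to guanidinoacetate inside mitochondria, and GAMT, best known from liver, methylates that product to creatine. SLC6A8 takes creatine up with sodium and chloride, and SLC16A12 (MCT12) lets creatine and guanidinoacetate leave the cell. Creatine kinases pass phosphate between ATP and creatine, with cytosolic forms near the sites that use ATP (CKB, the brain form, and CKM, the muscle form) and mitochondrial forms near the sites that make it (CKMT1, the ubiquitous form, and CKMT2, the sarcomeric form).

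RefSeq promoter windows (GRCm38.p6) were found for 7 of the 8 genes, Slc6a8 being the one without an entry. The 250 bases before the start are shown for Gatm, Ckb and Ckmt1, whose levels spanned the widest ranges along the nephron. They lie at chr2:122611278-122611527 (minus strand), chr12:111672339-111672588 (minus strand) and chr2:121357526-121357775 (plus strand, the more upstream of its 2 starts). Each is printed 5′ to 3′ in lower case, with the letters found by the search described next in capitals.
Gatm: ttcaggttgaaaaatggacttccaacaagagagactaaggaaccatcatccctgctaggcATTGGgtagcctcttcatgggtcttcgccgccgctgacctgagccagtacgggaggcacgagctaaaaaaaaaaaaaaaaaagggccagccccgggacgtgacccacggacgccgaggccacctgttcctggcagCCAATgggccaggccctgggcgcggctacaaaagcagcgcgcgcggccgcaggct
Ckb: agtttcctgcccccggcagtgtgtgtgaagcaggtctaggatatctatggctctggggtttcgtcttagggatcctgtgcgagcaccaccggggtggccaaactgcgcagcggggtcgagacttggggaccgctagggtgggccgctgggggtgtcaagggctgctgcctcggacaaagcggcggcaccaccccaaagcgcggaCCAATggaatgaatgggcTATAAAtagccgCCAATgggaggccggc
Ckmt1: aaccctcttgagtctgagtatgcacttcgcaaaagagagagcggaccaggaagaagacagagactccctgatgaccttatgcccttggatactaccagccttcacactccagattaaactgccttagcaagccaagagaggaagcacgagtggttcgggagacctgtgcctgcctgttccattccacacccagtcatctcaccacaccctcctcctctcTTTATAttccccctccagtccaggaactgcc
Both strands of each window were searched for 6 short motifs, none of whose matches overlapped another here. The TATA letters TATAAA, in 12.3% of 32536 distinct promoter windows of this length, were found in Ckb 28 bases before the start and, on the opposite strand, in Ckmt1 31 bases before it. The CCAAT letters, in 33.8% of windows, occurred in Gatm and Ckb with 2 matches each and not in the Ckmt1 window. The GC box letters GGGCGG (33% of windows) and the longer motifs for HNF4 (CAAAGTCCA, 0.387%), HNF1 (part of it, GTTAATNAT, 0.744%) and the estrogen-related receptors (TCAAGGTCA, 0.375%) had no match in these windows. The Gatm window held 17 CG pairs and the Ckb window 16, against 4 in Ckmt1 and a median of 6 over all windows.

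Marker genes of the labelled cells were checked in each group. Summed podocyte markers had a median of 8420 TPM in glomeruli and at most 30.5 TPM elsewhere, summed proximal markers 12881 to 79525 TPM in the 3 proximal groups, thick limb markers 25077 TPM in MTAL and 43501 TPM in CTAL, and principal cell markers 12807 to 34697 TPM from CNT to IMCD. Distal convoluted markers had a median of 6381 TPM in DCT and at most 7.55 TPM elsewhere, and thin limb markers, several of which other segments share, 6742 to 11721 TPM in the thin limbs and 14.6 to 2467 TPM elsewhere. Markers of other cells were also present: DTL1 had medians of 2297 TPM for proximal and 781 TPM for endothelial markers. Some groups also listed many receptor genes best known from the nose. Of 1979 odorant and vomeronasal receptor symbols, a median of 916 reached 1 TPM in DTL1, 678 in glomeruli, 520 in DTL3 and 329 in DTL2, against 112 in OMCD (76 to 253 over its mice) and 27 or fewer in the proximal, thick limb, DCT, CNT, CCD and IMCD groups. Within ATL the count was 33 for mouse 2 and 20 for mouse 3, but 601 for mouse 4 and 703 for mouse 6. The whole transcriptome moved with these groups, by a median log2 difference of -1.33 in PTS3 minus DTL1 and 0.69 in glomerulus minus tubule.

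Of the 8 genes, 7 passed the filter of 1 TPM in 3 mice and Ckmt2 did not. All 7 differed among the 15 groups in the moderated F-test of limma (adjusted p from 3.68e-41 for Ckmt1 to 3.63e-08 for Ckm), as did 93.9% of the 33793 genes tested. Over 14 contrasts of neighbouring segments, 40 of 98 tests of these genes were called, meaning an adjusted p under 0.05 and a log2 difference of at least 1, and 17.5% of tests were called over all genes. Ckb was called in 9 of the 14 steps, Slc16a12 and Ckmt1 in 7 each, Gamt in 6, Slc6a8 in 5, Gatm in 4 and Ckm in 2. No step was called between MTAL and CTAL or between CNT and CCD (0 of 7 genes at each), where 3.15% and 1.12% of all genes were; at an unadjusted p under 0.05 these counts by limma were 3 and 2 of 7.

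Step by step, the calls were spread unevenly along the tubule. Within the proximal tubule 4 of 7 genes were called between PTS1 and PTS2 (9.57% of all genes) and 3 between PTS2 and PTS3 (4.7%). Entering the thin limbs, 6 were called between PTS3 and DTL1, a step at which 65.5% of all genes were, and 4 between PTS3 and DTL2 (40%). The descending limbs differed from each other in 6 genes for DTL1 and DTL2 (28.2%) and in 3 for DTL2 and DTL3 (9.58%), and 1 was called between DTL3 and ATL (14.6%). At the start of the thick limb, from ATL to MTAL, 4 were called (28.1%), and at its end 2 between CTAL and DCT (4.35%). Further down, 1 was called between DCT and CNT (5.22%), 2 between CCD and OMCD (12.1%) and 4 between OMCD and IMCD (18.6%). At DTL3 to ATL the share of these genes that was called (14.3%) was near that of all genes, and at both steps from PTS3 (85.7% and 57.1%) the share of all genes was itself high. Of the 40 neighbouring calls, 28 were kept in every alternative that tested the gene and 12 were lost in at least 1, while 23 further tests passed in at least 1.

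**Figure D1:**
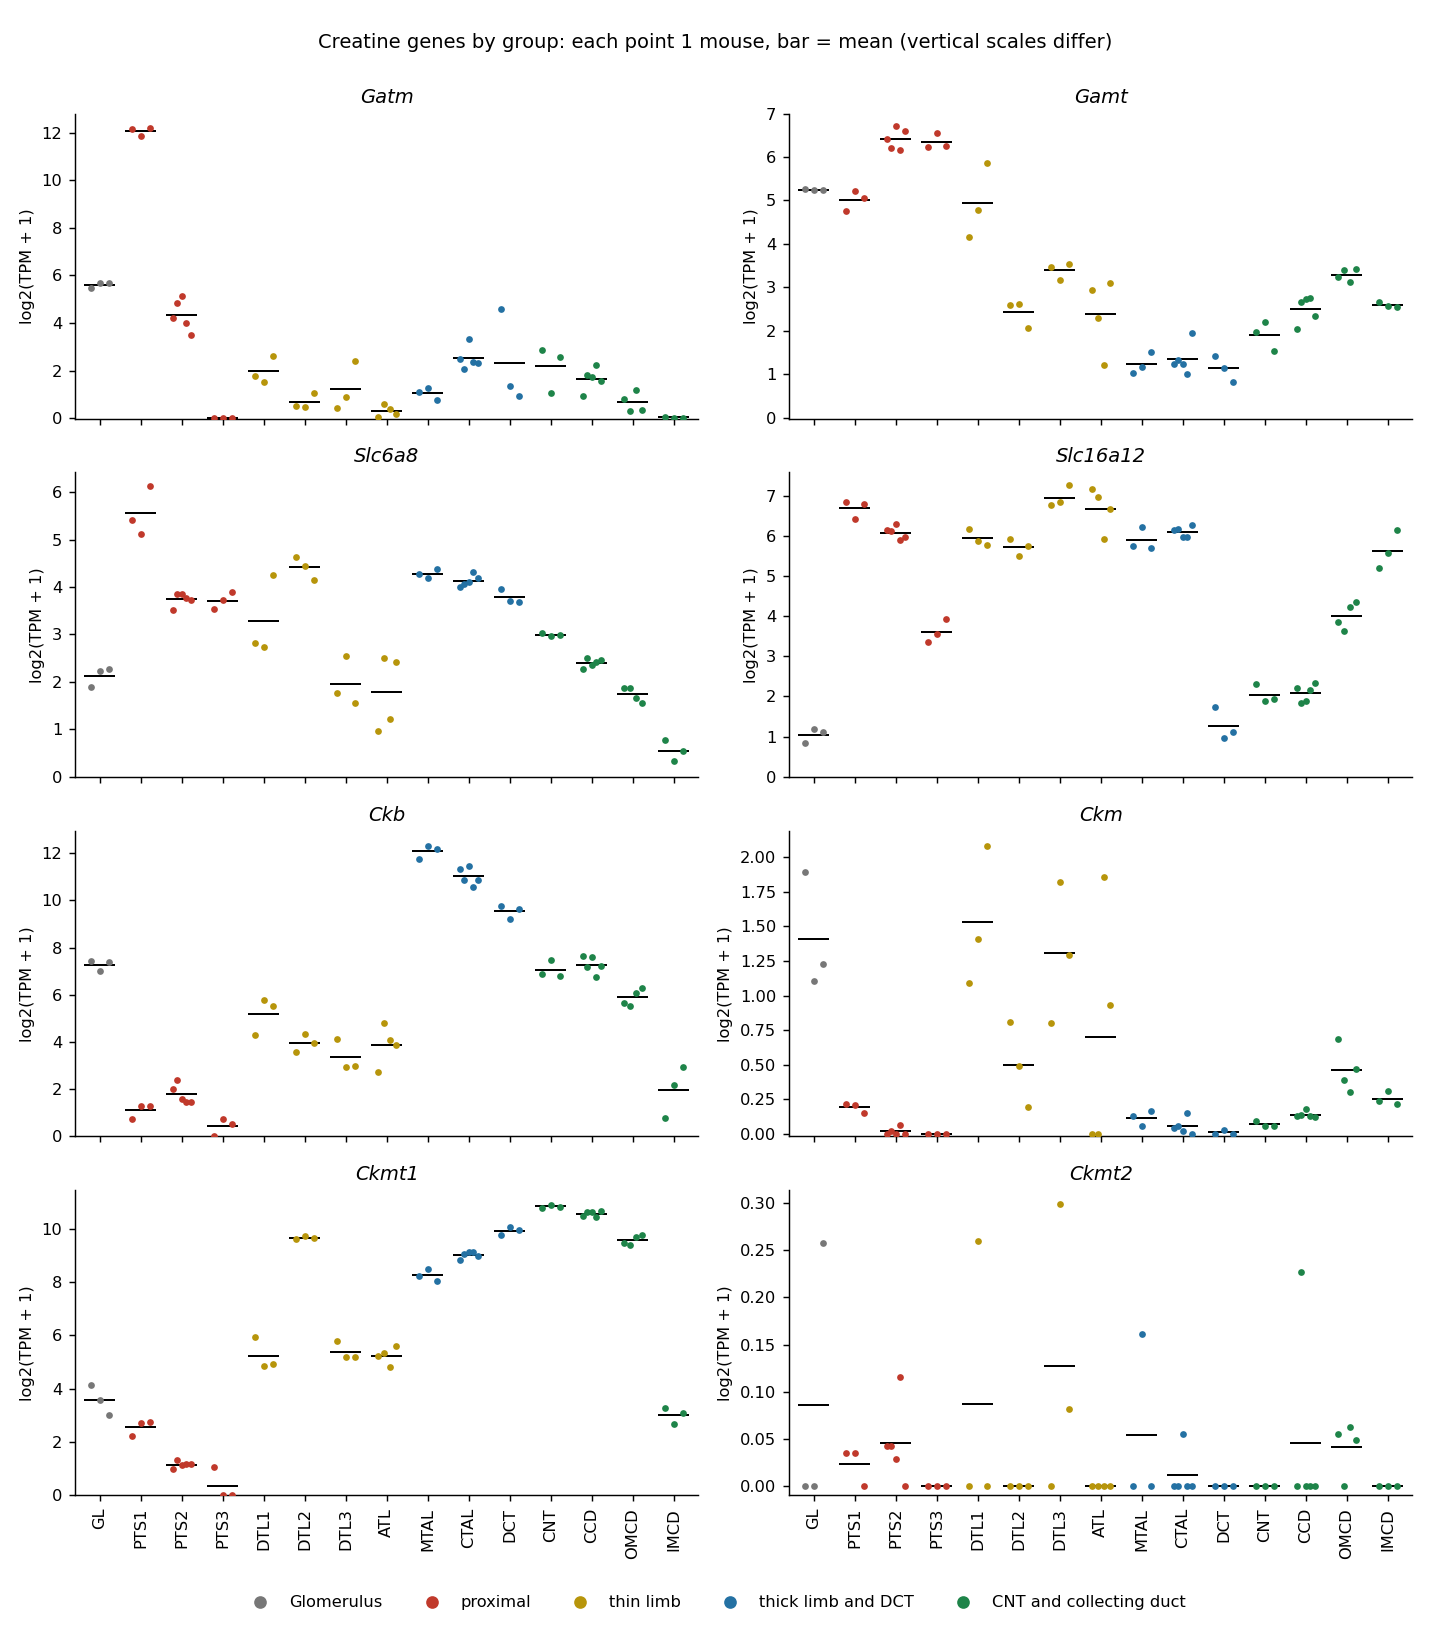
Level of each gene in the 15 groups (GL, glomerulus) as log2(TPM + 1) on vertical scales that differ between panels; each point is 1 mouse, bars are group means and colours mark nephron regions. Gatm stands at 12.1 in PTS1 and near 0 in PTS3, Ckb peaks in MTAL, Ckmt1 peaks in CNT with a separate high group in DTL2, and Ckm and Ckmt2 stay low.

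The first enzyme of the pathway was concentrated at the start of the proximal tubule. Gatm stood at 4558, 3757 and 4720 TPM in the 3 PTS1 mice (mean 4345 ± 515), and every other mouse of the series was at 53.5 TPM or lower. The 5 PTS2 mice had 17.3, 29.0, 35.2, 16.1 and 10.3 TPM (21.6 ± 10.2; the last of them from a column that names mouse 2 but a piece with no matching sample title), and the PTS3 mice 0, 0 and 0.015 TPM. The 3 groups did not overlap, so the transcript fell at each step down the same tubule: mean TPM was 201-fold higher in PTS1 than in PTS2, a log2(TPM + 1) difference of 7.74 (SE 0.47, adjusted p = 5.63e-18), and PTS2 exceeded PTS3 by 4.33 (SE 0.47, adjusted p = 1.63e-09). PTS1 was the highest group against each of the 14 others, by 6.47 log2 units over the glomerulus (intersection-union test, adjusted p = 6.24e-14). The sodium-glucose transporter gene Slc5a2, a marker of the early proximal tubule, had the same order, with 2792 ± 335 TPM in PTS1, 0.688 ± 0.323 in PTS2 and 0 in PTS3, whereas the phosphate transporter Slc34a1 kept 5659 ± 668 TPM in PTS2.

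Outside the proximal tubule Gatm was low but not uniform. The glomeruli of 3 mice had 43.6, 50.9 and 50.7 TPM (48.4 ± 4.16), above PTS2 without overlap (log2 difference 1.28, SE 0.47, adjusted p = 0.0130). That glomerular mean was 1.11% of the PTS1 mean, while Slc34a1 in glomeruli was 0.255% and Slc5a2 0.313% of their PTS1 means. Whether proximal RNA in the glomerular samples contributed was not tested. CTAL averaged 5.39 ± 3.14 TPM, CNT 4.72 ± 3.22, DTL1 3.21 ± 1.71 and CCD 2.30 ± 1.01, and neighbours in this part of the order did not differ beyond their spread. Within the thin limb DTL1 exceeded DTL2 (log2 difference 1.29, SE 0.53, adjusted p = 0.0415). This call was lost with a pseudocount of 5 (0.51), under median ratio rescaling (adjusted p = 0.0703) and quantile normalization (0.17), with pieces averaged as TPM (adjusted p = 0.0849), with the mouse number as a block (adjusted p = 0.0726) and without DTL1 mouse 1 or 5 or DTL2 mouse 1 or 2. Summed proximal markers had medians of 2297 TPM in DTL1 and 147 TPM in DTL2. DTL1 mouse 5 had the most Gatm of that group (5.18 TPM) and the most Slc5a2 (20.7 TPM). The marker sum and Slc34a1 were instead highest in DTL1 mouse 1, at 4228 and 2.5 TPM, against 2297 and 1.84 TPM in mouse 5. Gatm in DTL1 mouse 1 was 2.36 TPM. The call of PTS3 below DTL1 (-1.96, SE 0.53, adjusted p = 0.000920) was lost with a pseudocount of 5 (-0.69) and under quantile normalization (-0.27). DCT averaged 18.7 ± 30.2 TPM, but the high value came from 1 of 6 pieces. Piece b of DCT mouse 1 had 102.4 TPM of Gatm against 4.61 in piece a of the same mouse and 0.55 to 1.77 in the other 4 pieces. The same piece had 289.6 TPM of Slc34a1 and 71.6 TPM of Slc5a2, against 25.6 and 2.14 in piece a. Without this piece, an alternative chosen after the value was seen, 41 neighbouring tests were called in place of 40, the added one being Gatm between MTAL and CTAL (log2 difference -1.46; adjusted p = 0.00819, against 0.0509 with it). That test also passed with a pseudocount of 0.1 (adjusted p = 0.0163), with the filter at 5 TPM (0.0301), under median ratio rescaling (0.0409), with either pair of ATL mice and when any 1 of 12 single mice was left out (0.00575 to 0.0498). Without DCT mouse 1 as a whole, CTAL exceeded DCT by 1.36 (adjusted p = 0.0325), against 0.21 with it. Summed proximal markers had medians of 0.685 TPM in MTAL and 232.5 TPM in CTAL. The part of proximal RNA in the DTL1 and CTAL values of Gatm was not tested.

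The second enzyme did not follow the first. Gamt was highest in the straight proximal tubule, with 83.8, 74.1, 103.8, 71.1 and 95.8 TPM in the 5 PTS2 mice (85.7 ± 14.0) and 75.8, 93.3 and 75.8 TPM in PTS3 (81.6 ± 10.1), and these groups overlapped (log2 difference 0.07, SE 0.28, adjusted p = 1). In PTS1, where Gatm peaked, Gamt was lower, at 26.1, 36.3 and 32.4 TPM (31.6 ± 5.17). The difference from PTS2 was -1.41 log2 units (SE 0.28, adjusted p = 0.000107), with no overlap, and it shrank to -0.92 under quantile normalization, short of the fold required. The glomerulus stood beside PTS1 with 37.2 ± 0.153 TPM. DTL1 had 17.0, 27.0 and 57.1 TPM (33.7 ± 20.9), and in the same 3 mice summed proximal markers were 4228, 1049 and 2297 TPM and Slc5a2 alone 14.6, 8.38 and 20.7 TPM. Their part in these values was not tested. From DTL1 to DTL2 Gamt fell to 4.88 ± 1.06 TPM (log2 difference 2.51 for DTL1 minus DTL2, SE 0.31, adjusted p = 1.86e-08). DTL3 exceeded ATL by 1.01 (SE 0.29, adjusted p = 0.00680) and ATL exceeded MTAL by 1.14 (SE 0.29, adjusted p = 0.00144). The first of these calls was lost with a pseudocount of 5 (0.61), under median ratio rescaling (0.74) and quantile normalization (0.84), with ATL mice 2 and 3 only (0.77) and without DTL3 mouse 1 or 3 or ATL mouse 3 or 4 (0.61 to 0.98). The other was lost with a pseudocount of 5 (0.58), under median ratio rescaling (0.92) and quantile normalization (0.20), with the mouse number as a block (0.91), with ATL mice 4 and 6 only (0.91) and without ATL mouse 2 or 6 (0.96 and 0.91). The lowest levels were in the thick limb and DCT, with means of 1.41 ± 0.448 TPM in MTAL, 1.62 ± 0.731 in CTAL and 1.23 ± 0.455 in DCT, which did not differ from one another beyond their spread. Down the collecting system Gamt was at 4.80 ± 1.20 TPM in CCD, 8.995 ± 0.900 in OMCD and 5.32 ± 0.436 in IMCD, and the steps between them were below the fold required.

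The balance of the enzymes therefore changed sign within the proximal tubule. The log2 ratio of Gatm to Gamt, each with 1 TPM added, was 7.06 ± 0.38 in PTS1, -2.08 ± 0.68 in PTS2 and -6.35 ± 0.19 in PTS3 (n = 3, 5 and 3 mice), with no overlap. Pooled over the 11 proximal mice the ratio averaged -0.75 ± 5.37, against -0.50 ± 1.65 in the 26 mice of the distal groups from MTAL to IMCD, and the groups did not separate (difference -0.25, two-sided permutation test, p = 0.829). Its sign depended on the weights given to the proximal groups, with 0.07 when the groups were weighted equally. The permutation test shuffled mice across segments, so mice of 1 segment counted as separate units.

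**Figure D2:**
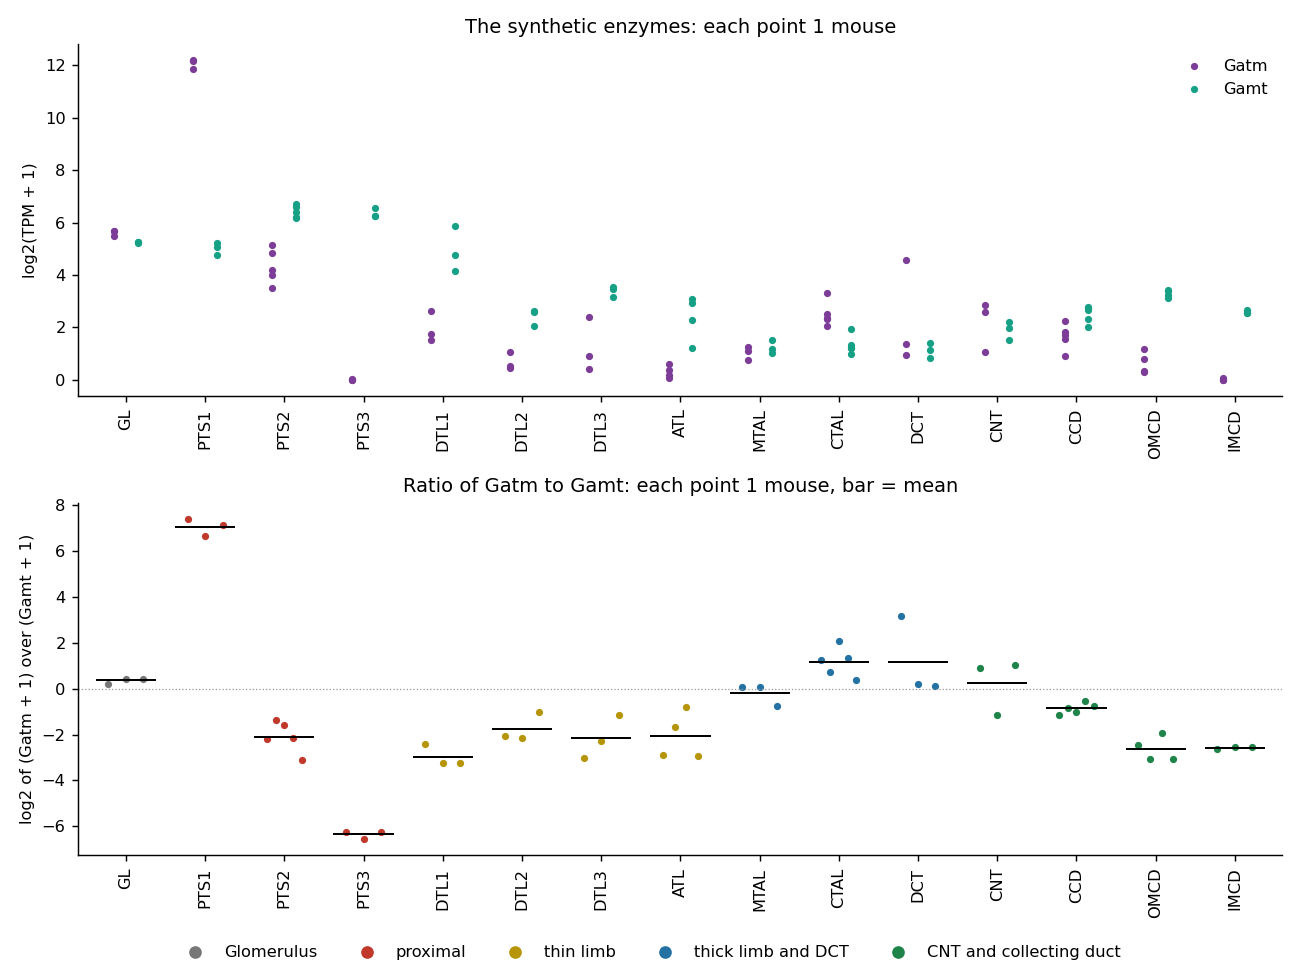
Upper plot: log2(TPM + 1) of Gatm and Gamt in each mouse by group. Lower plot: log2 of Gatm over Gamt, each with 1 TPM added; points are mice, bars are group means, and the dotted line marks equal levels. The ratio runs from 7.06 in PTS1 to -6.35 in PTS3, and DCT mouse 1 stands apart from the other 2 DCT mice.

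The uptake carrier was also highest in PTS1 but was spread more widely. Slc6a8 had 41.8, 33.8 and 68.9 TPM in the 3 PTS1 mice (48.2 ± 18.4) and did not overlap with DTL2, the next group, at 24.8, 21.0 and 16.9 TPM (20.9 ± 3.96). PTS1 exceeded PTS2 by 1.81 log2 units (SE 0.27, adjusted p = 4.17e-07), while PTS2 (12.4 ± 1.28 TPM) and PTS3 (12.2 ± 1.64 TPM) differed by 0.03 (SE 0.27, adjusted p = 1). The lead of PTS1 over all other groups was 1.14 log2 units (intersection-union test, adjusted p = 0.00205), and without PTS1 mouse 3 it was 0.86, short of the fold required. A plateau followed from MTAL (18.6 ± 1.21 TPM) through CTAL (16.7 ± 1.53) to DCT (12.8 ± 1.46), none of whose steps was called. From there the CNT mean was 7.03 ± 0.133 TPM, followed by CCD at 4.29 ± 0.329, OMCD at 2.38 ± 0.340 and IMCD at 0.518 ± 0.288, and only the last step passed (log2 difference 1.19, SE 0.28, adjusted p = 0.000637). That call was lost with a pseudocount of 5 (0.42), with quantile normalization (0.40) and with median ratio rescaling (0.98). Earlier steps passed in its place: DCT to CNT under median ratio rescaling (1.11, limma adjusted p = 0.00614) and quantile normalization (1.08, adjusted p = 0.0332), and CCD to OMCD under quantile normalization (1.096, adjusted p = 0.00371). The step from PTS3 to DTL1 was 0.44 and not called. It passed under median ratio rescaling (1.45, limma adjusted p = 2.01e-05) and quantile normalization (2.66, limma adjusted p = 6.12e-09). The thin limbs did not share 1 level: DTL2 was above DTL1 by 1.14 (SE 0.30, adjusted p = 0.00179) and above DTL3 by 2.46 (SE 0.30, adjusted p = 1.3e-08). DTL1 mouse 5 had 18.2 TPM, mouse 1 6.06 TPM and mouse 3 6.91 TPM. Leaving out mouse 1 (-0.91) or mouse 3 (-0.87), or a pseudocount of 5 (-0.84), brought the DTL1 to DTL2 step below the fold required.

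The efflux carrier averaged 10 TPM or more in 11 of the 15 groups, against 8 for the uptake carrier, and had the larger step between neighbours of the 2 carriers. Slc16a12 averaged 125 ± 24.5 TPM in DTL3, 107 ± 35.8 in ATL and 104 ± 14.8 in PTS1, groups that overlapped and did not differ in adjacent comparisons. The 4 ATL mice had 142.8, 123.6, 59.5 and 101.8 TPM, the lower 2 being those with many receptor genes. PTS2 (67.3 ± 7.68 TPM), DTL1 (60.9 ± 8.92), MTAL (59.3 ± 12.3) and CTAL (68.4 ± 6.42) lay close together. At the cortical end of the thick limb the transcript fell: the 5 CTAL mice had 61.6 to 76.6 TPM and the 3 DCT mice 2.70, 0.955 and 1.16 TPM, a 42.7-fold difference of mean TPM (log2 difference 4.84, SE 0.21, adjusted p = 6.17e-23). A second gap lay within the proximal tubule, where PTS3 had 9.82, 10.7 and 14.4 TPM against 58.5 to 78.3 TPM in the PTS2 mice, a log2 difference of 2.48 (SE 0.21, adjusted p = 1.84e-12). Along the collecting duct the order turned, from 3.29 ± 0.612 TPM in CCD to 15.5 ± 3.70 in OMCD and 51.0 ± 16.7 in IMCD. Both steps passed the test, at -1.93 for CCD minus OMCD (SE 0.19, adjusted p = 1.76e-10) and -1.62 for OMCD minus IMCD (SE 0.22, adjusted p = 6.66e-08), opposite in sign to Slc6a8. The glomerulus was the lowest group, with 1.15 ± 0.350 TPM.

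Cytosolic Ckb was the most abundant of these transcripts in the thick limb. It stood at 3501, 5102 and 4684 TPM in the 3 MTAL mice (4429 ± 831), at 2624, 1847, 2847, 1545 and 1891 TPM in CTAL (2151 ± 556), and at 869.9, 593.3 and 789.1 TPM in DCT (751 ± 142). The 3 groups did not overlap. The thin ascending limb just before MTAL had 5.55, 26.4, 15.8 and 13.6 TPM (15.4 ± 8.61), so mean TPM differed 289-fold across that border (log2 difference -8.24 for ATL minus MTAL, SE 0.38, adjusted p = 1.74e-22). Of all genes, 5.43% were called lower in ATL at this step. CTAL exceeded DCT by 1.498 (SE 0.36, adjusted p = 0.00328) and DCT exceeded CNT by 2.48 (SE 0.40, adjusted p = 9.2e-06). The step from MTAL to CTAL was 1.06 (SE 0.36) and missed the threshold in the two-sided contrast (adjusted p = 0.0708). It passed with a pseudocount of 5 (adjusted p = 0.00913), with the filter at 5 TPM (0.0420), under median ratio rescaling (0.0426), with ATL mice 4 and 6 only (0.0345) and without ATL mouse 2 or IMCD mouse 1 or 3 (0.0360 to 0.0492). The one-sided intersection-union test called MTAL above every other group (adjusted p = 0.0172). That margin over CTAL was below the fold required, at 0.95, without MTAL mouse 2 and likewise without CTAL mouse 4, and at 0.93 under quantile normalization, and the adjusted p was 0.111 with a pseudocount of 0.1.

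Downstream, Ckb held a second, lower level. CNT averaged 135 ± 36.9 TPM and CCD 158 ± 37.6, near the glomerulus at 154 ± 24.1, and these 3 groups overlapped. OMCD had 50.1, 44.5, 66.7 and 79.0 TPM (60.1 ± 15.7) and IMCD 0.837, 5.50 and 7.70 TPM (4.68 ± 3.50), a difference of 3.92 (SE 0.38, adjusted p = 1.07e-11). Summed intercalated cell markers fell at the same step, from a median of 2480 TPM in OMCD to 0.637 TPM in IMCD. Their part in these Ckb values was not tested. Proximal means of Ckb were below that of IMCD, with 1.25 ± 0.496 TPM in PTS1, 2.59 ± 1.22 in PTS2 and 0.445 ± 0.422 in PTS3, although the IMCD and PTS2 mice overlapped (log2 difference 0.20, SE 0.36, limma adjusted p = 0.866). The PTS2 call over PTS3 (1.36) was lost with a pseudocount of 5 (0.47) and without PTS3 mouse 1 (adjusted p = 0.0618). Among thin limbs, DTL1 had 18.8, 60.4 and 44.6 TPM (41.2 ± 21.0), and its call over DTL2 (1.24, SE 0.40, adjusted p = 0.0109) was lost when mouse 3 (0.96) or mouse 5 (adjusted p = 0.0511) of DTL1, or mouse 1 of DTL2 (adjusted p = 0.0620), was left out, with a pseudocount of 0.1 (adjusted p = 0.0543) and under quantile normalization (adjusted p = 0.0791). Summed thick limb markers were 81.0 to 395 TPM in the DTL1 mice and 19.2 to 24.6 TPM in the DTL2 mice, and their part in these Ckb values was not tested.

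The mitochondrial kinase had a different order from the cytosolic one. Ckmt1 was highest in CNT, at 1791, 1933 and 1849 TPM (1858 ± 71.1), and in CCD, at 1445, 1602, 1628, 1389 and 1629 TPM (1539 ± 113), which did not differ beyond the test's threshold (log2 difference 0.27, SE 0.21, adjusted p = 1). Means then ran back up the distal nephron through 985.1 ± 98.5 TPM in DCT and 527 ± 41.0 in CTAL to 313 ± 51.1 in MTAL. Each of these 3 steps had an adjusted p under 0.05 and a log2 difference below 1 (-0.76 for MTAL minus CTAL, -0.90 for CTAL minus DCT, -0.92 for DCT minus CNT), so none was called; CTAL minus DCT passed under median ratio rescaling, at -1.01. OMCD had 717.1, 670.6, 845.2 and 868.8 TPM (775 ± 96.6), below CCD without overlap by a log2 difference of 0.99 (SE 0.19, adjusted p = 0.000175), just short of the fold required. That step passed under median ratio rescaling (1.07), with the mouse number as a block (1.006) and without CCD mouse 1 or 4 or OMCD mouse 3 or 4 (1.01 to 1.05). IMCD had 9.80, 5.38 and 7.47 TPM (7.55 ± 2.21), a 103-fold drop of mean TPM (log2 difference 6.59, SE 0.22, adjusted p = 2.51e-27). At this step 15.2% of all genes were called higher in OMCD.

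A separate high group lay in the loop. DTL2, the outer medullary long descending limb, had 796.4, 853.1 and 813.6 TPM of Ckmt1 (821 ± 29.1). The short descending limb DTL1 had 60.3, 27.9 and 29.8 TPM, and the inner medullary continuation DTL3 had 54.5, 35.2 and 35.2 TPM. DTL2 was thus 20.9-fold above DTL1 and 19.7-fold above DTL3 in mean TPM, with log2 differences of -4.44 for DTL1 minus DTL2 (SE 0.24, adjusted p = 3.08e-19) and 4.30 for DTL2 minus DTL3 (SE 0.24, adjusted p = 8.56e-19). Over all genes 2.99% were called lower in the first of these contrasts and 3.5% higher in the second. Summed markers of the thick limb, another segment rich in Ckmt1, had a median of 20.1 TPM in DTL2 against 299 TPM in DTL1 and 256 TPM in DTL3, and summed principal and intercalated markers were 2.42 and 0.35 TPM in DTL2; the part of these cells in the Ckmt1 values was not tested. PTS3, the segment before the descending limbs, had 1.59, 0 and 0 TPM. The Strc gene overlaps Ckmt1 on the opposite strand and the library kit does not mark strand. Strc averaged at most 0.84 TPM in any group, and its part in the Ckmt1 values was not tested.

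**Figure D3:**
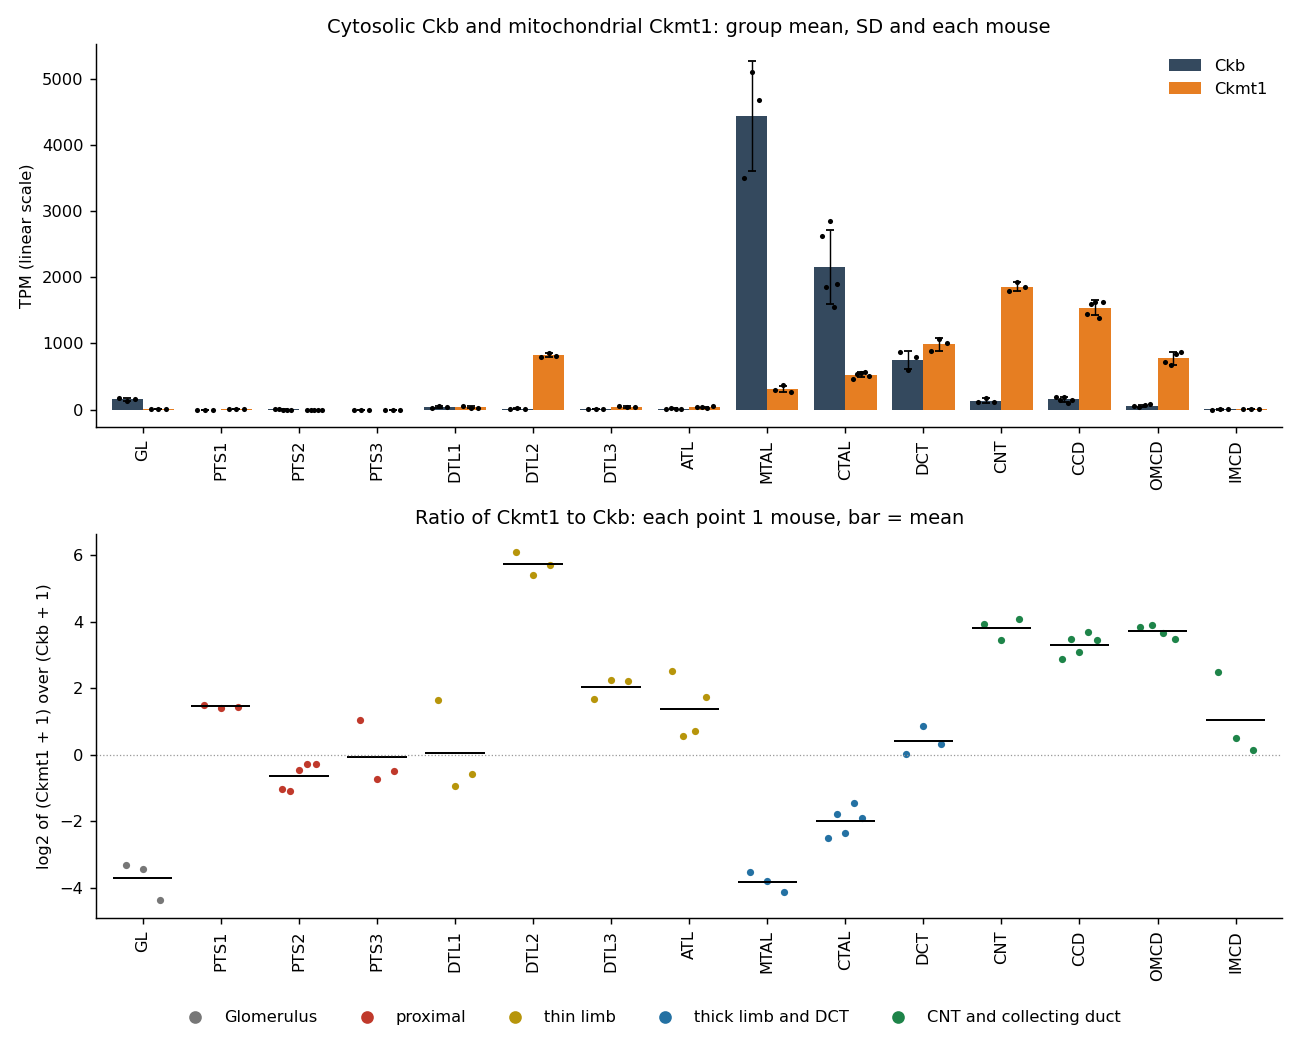
Upper plot: TPM of Ckb and Ckmt1 by group on a linear scale; bars are means, error bars SDs and dots mice. Lower plot: log2 of Ckmt1 over Ckb, each with 1 TPM added; points are mice, bars are group means, and the dotted line marks equal levels. Ckb leads in MTAL and CTAL, the DCT means are 751 TPM of Ckb and 985.1 TPM of Ckmt1, and Ckmt1 leads in DTL2, CNT, CCD and OMCD.

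As a share of summed kinase TPM, Ckb made up 93.3% ± 1.29 in MTAL, 79.6% ± 4.73 in CTAL and 43.1% ± 7.12 in DCT. It was 6.75% ± 1.48 in CNT, 9.27% ± 1.98 in CCD and 7.10% ± 0.941 in OMCD, where nearly all the rest was Ckmt1. The sum itself was 4742 ± 853 TPM in MTAL, 2678 ± 545 in CTAL, 1736 ± 62.8 in DCT and 1993 ± 104.7 in CNT, so the change of share between DCT and CNT came with sums that differed less. In DTL2 Ckmt1 was 98.1% ± 0.439 of 837 ± 33.4 TPM, and in the glomerulus Ckb was 91.9% ± 2.68 of 168 ± 26.1 TPM. The log2 ratio of Ckmt1 to Ckb averaged -1.84 ± 1.68 in the 11 mice of MTAL, CTAL and DCT and 3.06 ± 1.19 in the 15 mice of CNT and the collecting duct. The difference of -4.90 had a two-sided permutation p of 1e-05, the smallest that 100000 resamples can give (2e-05 adjusted over both ratio tests). Single mice were shuffled across the segments of both sides, so mice of 1 segment counted as separate units. This p therefore does not measure how far segments within a side differ. The ranges, -4.13 to 0.85 and 0.15 to 4.06, overlapped only where DCT met IMCD: by group the MTAL ratio was -3.82 ± 0.30, the CTAL ratio -1.99 ± 0.43 and the DCT ratio 0.40 ± 0.42. The CNT ratio was 3.80 ± 0.33, and the collecting duct had 3.31 ± 0.33 in its cortical, 3.71 ± 0.19 in its outer and 1.04 ± 1.26 in its inner medullary part.

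The muscle-type kinases were at the limit of the measurement. Ckm averaged 2.10 TPM in DTL1 (1.13, 1.94 and 3.24), 1.80 in glomeruli (2.90, 1.15 and 1.35) and 1.58 in DTL3 (0.74, 2.54 and 1.45), and lay below 1 TPM in the other 12 groups. These are the groups with the most receptor genes at 1 TPM. Within ATL, Ckm was listed at 0 in mice 2 and 3 and at 2.63 and 0.91 TPM in mice 4 and 6, in the same split as the receptor genes. Summed skeletal muscle markers had group medians of 2.47 to 15.8 TPM, with the highest in the glomerulus and the lowest in PTS2. Summed cardiac or slow muscle markers had medians of 21.6 TPM in DTL1, 15.3 in glomeruli, 9.41 in DTL3 and 8.44 in ATL, and 0.01 to 6.46 TPM in the other groups, with 3 of the 4 markers (Myh7, Myh6 and Tnni3) at 0 in PTS3. The overlapping antisense gene A930016O22Rik averaged 3.44 TPM in DTL1. The part of each in the Ckm values was not tested. Ckm was called higher in DTL1 than in PTS3 (log2 difference -1.53 for PTS3 minus DTL1, SE 0.27, adjusted p = 2.73e-06), close to the median of all genes at -1.33, and 61.8% of all genes were called in that direction. Both that call and the call over DTL2 (1.03, SE 0.27, adjusted p = 0.00186) were lost under quantile normalization, at -0.33 and 0.11, and with a pseudocount of 5, at -0.49 and 0.37. The call over DTL2 was also lost under median ratio rescaling (0.89), with the mouse number as a block (0.95) and without DTL1 mouse 5 (0.75) or DTL2 mouse 3 (0.88). Ckmt2, the sarcomeric mitochondrial form, did not reach 1 TPM in any mouse. It was listed at 0 in 73 of 93 samples, its highest sample value was 0.3 TPM and its highest group mean 0.0967 TPM in DTL3, so no comparison was made.

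The genes were next compared over broader regions. Of the 7 genes tested, 6 were called between the proximal groups and the distal groups from MTAL to IMCD, where 19.7% of all genes were. Higher in the proximal groups were both enzymes and both carriers, Gatm by 3.99 (SE 0.24), Gamt by 3.93 (SE 0.14), Slc16a12 by 1.60 (SE 0.11) and Slc6a8 by 1.498 (SE 0.13), against 4.46% of all genes. Lower were the kinases Ckb, at -6.75 (SE 0.18), and Ckmt1, at -7.41 (SE 0.11), against 15.3% of all genes. The adjusted p-values of these 6 lay between 1.54e-42 and 1.69e-13, and Ckm did not pass (-0.09, SE 0.12, adjusted p = 0.79). For Gatm the contrast averages a PTS1 value with a PTS3 value at the floor, so it does not describe any single proximal segment. Nor do the carrier differences describe every segment. Slc6a8 averaged 12.4 TPM in PTS2 and 12.2 in PTS3, below MTAL (18.6) and CTAL (16.7). Slc16a12 averaged 11.7 TPM in PTS3, below MTAL (59.3), CTAL (68.4) and IMCD (51.0).

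Between the thick limb with DCT and the collecting system with CNT, 3 of 7 were called, against 8.77% of all genes. Ckb (5.34, SE 0.20, adjusted p = 4.76e-26) and Slc6a8 (2.15, SE 0.15, adjusted p = 1.05e-16) were higher on the thick limb side, the direction of 2.76% of all genes. Gamt was lower there (-1.34, SE 0.16, adjusted p = 9.11e-10), as were 6.02% of all genes, a call lost with a pseudocount of 5 (-0.67) and under quantile normalization (-0.81). Slc16a12 (0.98), Gatm (0.82) and Ckmt1 (0.58) had adjusted p-values of 2e-09, 0.011 and 8.04e-05 but missed the fold required. The first 2 of these passed under median ratio rescaling, at 1.26 and 1.003, under quantile normalization, at 1.27 and 1.18, and without DCT mouse 3, at 1.005 and 1.05. Gatm also passed with a pseudocount of 0.1 (1.51), and Slc16a12 without MTAL mouse 3, DCT mouse 2, CNT mouse 1, OMCD mouse 4 or IMCD mouse 3 (1.0045 to 1.04). The Ckmt1 value does not describe every segment, since the means of CNT (1858 TPM) and CCD (1539 TPM) lay above those of MTAL, CTAL and DCT and that of IMCD was 7.55 TPM.

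Between the glomerulus and the mean of the 14 tubule groups all 7 were called, against 35.6% of all genes. Gatm (3.40, SE 0.38, adjusted p = 3.04e-10), Gamt (2.04, SE 0.23), Ckb (1.94, SE 0.30) and Ckm (1.03, SE 0.20) were higher in the glomerulus, as were 31.6% of all genes. Slc16a12 (-3.86, SE 0.17, adjusted p = 1.91e-23), Ckmt1 (-2.92, SE 0.17) and Slc6a8 (-1.03, SE 0.22) were lower, against 3.94% of all genes. Against the median of all genes at 0.69 in this contrast, Ckm stood little apart. Without glomerulus mouse 1 the Ckm and Slc6a8 differences were 0.79 and -0.91 and 5 of 7 were called, and with a pseudocount of 5 they were 0.32 and -0.75, again with 5 called. The Ckm call was also lost under median ratio rescaling (0.83), quantile normalization (0.14, limma adjusted p = 0.342) and with ATL mice 4 and 6 only (0.98), and that of Slc6a8 without DTL1 mouse 5 (-0.998) and with the mouse number as a block (-0.99).

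Counting genes with 1 group above all others, 3 of 7 passed, Gatm and Slc6a8 in PTS1 and Ckb in MTAL, against 10.7% of all genes. Gamt was shared by PTS2 and PTS3 (margin 0.07) and Ckmt1 by CNT and CCD (0.27). Slc16a12 was shared by DTL3, PTS1 and ATL (0.26 for DTL3 over PTS1 and 0.009 for PTS1 over ATL).

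**Figure D4:**
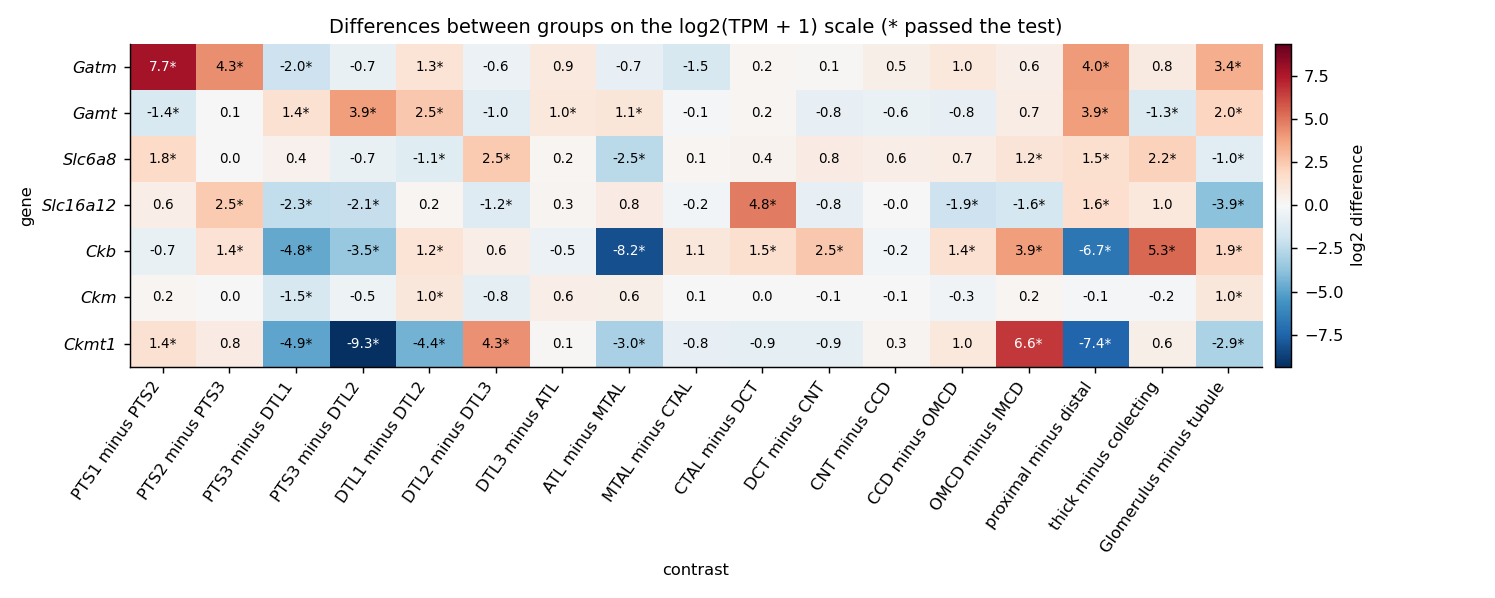
Log2(TPM + 1) differences of the 7 tested genes in the 14 neighbouring contrasts and in the 3 regional ones; colour and number give the difference of the first group minus the second, and asterisks mark calls. The deepest colours are Gatm between PTS1 and PTS2, Ckb between ATL and MTAL, and Ckmt1 between PTS3 and DTL2.

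Correlations of group mean log2 levels over the 15 groups describe how the genes lay to each other. Ckb and Ckmt1 had r = 0.72, Gamt and Ckmt1 -0.81, Gamt and Ckb -0.70, Gatm and Slc6a8 0.52, and Gatm and Gamt 0.38. All values come from the same libraries, and no p is attached. By the same measure, among 12065 genes with a mean of at least 10 TPM in some group, the closest to Gatm were Creg1 (r = 0.94), Sectm1b (0.93) and Alpl (0.93), all highest in PTS1. Closest to Gamt were Fam169b (0.96), Cmah (0.94) and Glis1 (0.94), highest in PTS2 or PTS3. Slc6a8 was nearest to Selenbp1 (0.93), Sult1c2 (0.89) and AI854703 (0.89), and Slc16a12 to Lzts3 (0.81), Adap1 (0.80) and Phyhipl (0.80), the loosest likeness of the 7. Ckb lay nearest to Syt17, Nr0b2 and Pcsk7 (each 0.96), and Ckmt1 to Myo19 (0.97), Ybx2 (0.97) and Mroh1 (0.95). For Ckm they were Fabp5l2 (0.99), Unc80 (0.98) and Ighv2-6-8 (0.98), each highest in DTL1, the group with the most receptor genes.

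Genes that feed the pathway were followed by fixed lists. Of 14 genes for arginine, glycine and methyl donor supply, all tested, 7 were called higher in the proximal groups and 2 lower, where 4.46% of all genes were higher and 15.3% lower, with a median log2 difference of 1.23 against -0.10 over all genes. Among them Ass1, which makes argininosuccinate, differed by 6.21 and Ahcy, which clears the S-adenosylhomocysteine left by methylation, by 3.55. Oat, which breaks down ornithine, was lower in the proximal groups (-3.24) and highest in OMCD, at 856 ± 111 TPM. The methionine adenosyltransferase Mat2a reached 1504 ± 434 TPM and the serine synthesis enzyme Phgdh 867 ± 79.5 TPM in DTL3. All 5 transporters of creatinine and carnitine followed here were called higher in the proximal groups (4.46% of all genes), with a median of 6.79. The organic ion carriers Slc22a7 (2468 ± 224 TPM) and Slc22a2 (882 ± 75.6) and the apical exporter Slc47a1 (879.9 ± 76.9) all peaked in PTS2, not in PTS1.

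Genes acting beside the kinases and the uptake carrier were followed in the same contrast, in which 4.46% of all genes were called higher and 15.3% lower in the proximal groups. Of 8 adenylate kinases, which exchange phosphate between adenine nucleotides, 7 were tested, with 1 called higher and 2 lower in the proximal groups (median -0.28). Ak1 was highest in MTAL (227 ± 23.3 TPM), Ak3 in DCT (466 ± 8.07 TPM) and Ak4, the one higher in the proximal groups (log2 difference 5.76), in PTS2 (210 ± 36.6 TPM). Ak1 was higher on the thick limb side than in the collecting system by 3.41, the same direction as Ckb. Of 7 mitochondrial carriers and channels, 0 were called higher and 1, Slc25a4, lower in the proximal groups by limma (-1.26, median of the list -0.55), while 6 of 7 had an unadjusted p under 0.05. The adenine nucleotide translocase Slc25a5 reached 5514 ± 555 TPM in MTAL, the phosphate carrier Slc25a3 1980 ± 26.2 TPM in CTAL and the translocase Slc25a4 915 ± 84.8 TPM in CNT. Among 5 relatives of the creatine carrier in its family, 2 were called higher and 1 lower in the proximal groups (median -0.02). The taurine carrier Slc6a6 was highest in DTL1 (628 ± 180 TPM), Slc6a13 in PTS2 (368 ± 18.3 TPM) and the betaine carrier Slc6a12 in DTL3 (113 ± 32.4 TPM), none of them in PTS1, where Slc6a8 was highest.

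**Figure D5:**
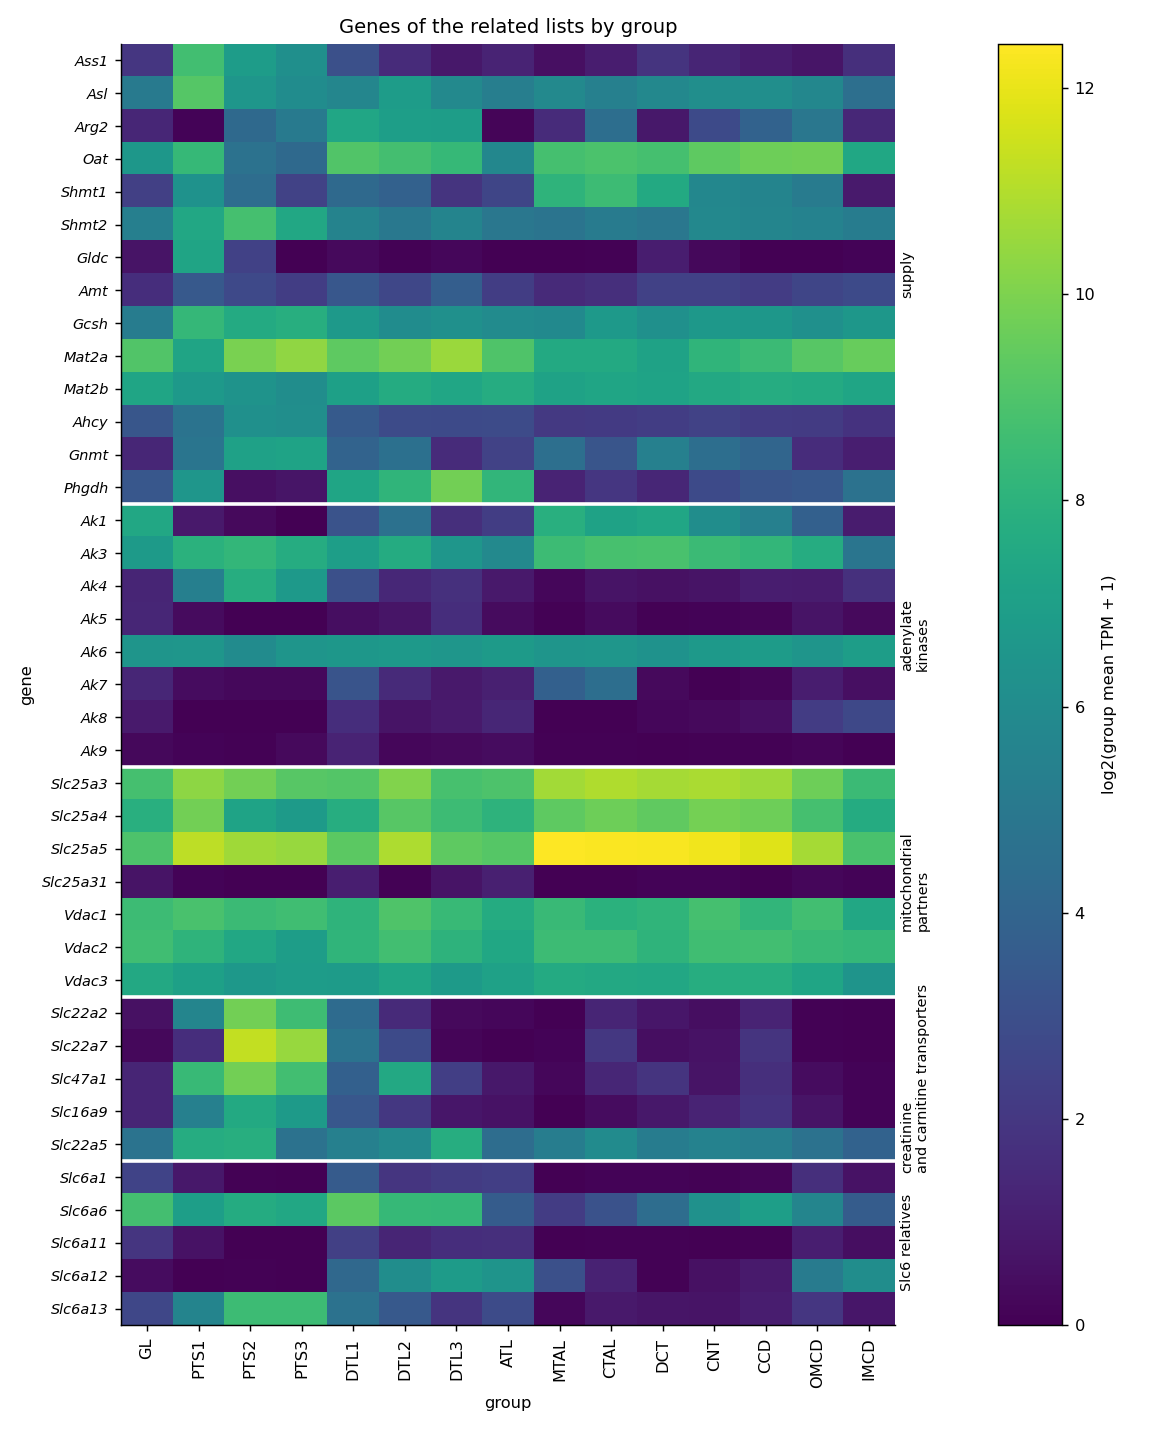
Group means of the genes of the 5 related lists as log2(mean TPM + 1), with groups in nephron order (GL, glomerulus) and white lines between lists. Slc22a2, Slc22a7, Slc47a1 and Slc16a9 are brightest in PTS2, and Slc25a5 is brightest from MTAL to CCD.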

How the data were processed

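Tubule segments and glomeruli were dissected from kidneys of male C57BL/6 mice. RNA was isolated with Direct-zol kits, amplified with a SMARTer ultra-low input kit, and libraries were made with Nextera XT, per the labels' protocols. The authors deposited 1 table of TPM values for 54532 genes, whose total ran from 999998.6 to 1000190.3 over 93 samples. STAR 2.5.4a and RSEM 1.3.0 are named, with no role, in the submitters' processing notes, and the genome build and annotation are not given in the sources used here. TPM keep no read depth, so depth is unknown and no counting interval is given. Tubule columns hold 2 decimals and glomerulus columns 1. No 2 columns were identical (0 pairs). All 93 columns were used (0 left aside), and 1 of them, which names mouse 2 and PTS2 but a piece letter that no sample title has, entered as a PTS2 mouse with its number not used. Single cells (3 samples) were not analysed here.

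Values were taken as log2(TPM + 1) and averaged over pieces of 1 mouse number and segment, which left 53 mice in 15 groups. The series design counts 53 mice, so equal numbers in different segments are different animals and do not pair. Genes with 1 TPM in at least 3 mice (33793) were fitted with limma 3.58.1 in R 4.3.3 (lmFit, eBayes with trend), all groups sharing 1 estimate of the spread, with Benjamini-Hochberg adjustment over all genes within each contrast. Log2 differences are on this scale, which understates changes of genes at low TPM. A call needed an adjusted p under 0.05 and a log2 difference of at least 1. The highest group was tested with an intersection-union test, and the 2 ratios with two-sided permutation tests of 100000 resamples (numpy 2.4.6). The scripts were tested on simulated data first. The p-values of limma and of the intersection-union test measure only the spread between these mice. Both permutation tests shuffled mice across segments, so their p-values do not treat the segment as the unit.

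All 8 members are named, with the 3 genes of highest group mean in each related list and the 3 most alike in pattern, passing over Gm, Rik, mitochondrial, ribosomal and pseudogene names; Ass1, Ahcy and further Slc25a4 and Ak1 differences were added after their values were seen. The lists leave out 2 genes, which are not reported here. Members, lists and tests were chosen with earlier results of these data known. Alternatives were the pseudocount, the filter, rescaling by median ratios, quantile normalization, averaging before the log, eBayes without trend, the mouse number as a block, ATL mice in pairs, and leaving out each mouse.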

Additional observations from a re-analysis of the deposited data

Results flagged for a closer look

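Within groups of 4 or 5 mice, 39 sets of values were examined for a mouse standing far from the others, and 5 were found. For normally distributed values chance alone would mark about 1 set in 20. Untransformed TPM were examined, whose distribution was not tested, so the rate here can differ. It does not hold for Ckmt2, where a single value above 0 is always marked. Gatm in CTAL was 10.9 TPM in mouse 3 against 3.19 to 4.65 TPM in the other 4 mice, and its pieces ran from 4.35 to 17.5 TPM; this mouse had 68.1 TPM of summed proximal markers, the least of the group, and their part in the value was not tested. Gamt in CTAL was 2.89 TPM in mouse 5 against 1.01 to 1.51 TPM. Ckm in CCD was 0.135 TPM in mouse 3 against 0.09 to 0.1 TPM. Ckmt2 was listed at 0.04 TPM in CTAL mouse 3 and at 0.17 TPM in CCD mouse 2, and at 0 in the other mice of both groups.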

How the results depend on the processing

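Over the alternatives, 0 of the called differences of single genes changed direction. The 40 neighbouring calls became 50 with a pseudocount of 0.1 and 31 with one of 5, and the 7 glomerular calls became 5 with a pseudocount of 5 and 6 under both rescalings and the stricter filter, which leaves Ckm out. The count called between thick limb with DCT and collecting system was 5 in place of 3 under median ratio rescaling, 4 with a pseudocount of 0.1 or quantile normalization and 2 with a pseudocount of 5. The log2 difference of the Gatm to Gamt ratio was -0.25 and became 0.0891 with a pseudocount of 5 and 0.0681 with groups weighted equally, none of them past the threshold. With each mouse left out in turn, 7 genes always differed among groups, neighbouring calls ran from 38 to 43, proximal against distal stayed at 6, thick limb against collecting system ran from 3 to 5 (5 without DCT mouse 3), glomerulus against tubule from 5 to 7, and genes with 1 highest group from 2 to 3. The Ckmt1 to Ckb difference ran from -5.17 to -4.67 and the Gatm to Gamt difference from -1.07 to 0.33, above 0 when any PTS3 mouse was left out. With the mouse number as replicate block, 38 neighbouring tests and 6 of 7 glomerular ones (not Slc6a8) were called. Same-numbered mice deviated together no more (median r 0.0001847 over 290 pairs) than others (0.0003665 over 968). This check alone cannot show whether equal numbers share an animal, as a small animal effect could be hidden by other spread. That they are different animals rests on the mouse count of the series design. Depth is unknown, so values near 0, as for Ckm, Ckmt2 and proximal Ckb, are limited by an unknown counting error.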
